A study of Mus musculus with 6 samples.

Results

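The proteasome genes of mouse liver were described in livers from a long-term diet study. The genes were taken by name, as every row of the count tables whose symbol begins with Psm, then a letter from a to g, then a number. This gave 49 of the 24982 gene rows. The measured tissue was whole liver of male C57BL/6NJ mice, a common inbred strain, and the labels name no transgene or deletion in either group. The high fat high sugar group (n = 3) was fed high fat food and given sugar water to drink, and the chow group (n = 3) ate standard chow, each for 54 weeks. The age of the mice at the start was not given in the labels. PolyA RNA was sequenced from 1 library per sample, and a level is in CPM, counts scaled to effective library size (TMM scaling).

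The proteasome is the barrel-shaped protease that degrades ubiquitin-tagged proteins. Its core is built from rings of alpha subunits, which form the gates, around rings of beta subunits, of which Psmb5, Psmb6 and Psmb7 carry the active sites. Under interferon-gamma, cells make Psmb8, Psmb9 and Psmb10, which take the places of these catalytic subunits in newly assembled particles, the immunoproteasome, and favour peptides that suit MHC class I. A regulatory particle of ATPases (Psmc genes) and non-ATPases (most Psmd genes) caps the core and unfolds substrates. The caps PA28 (Psme1 with Psme2, or Psme3) and PA200 (Psme4) open the core in other ways. In hepatocytes the proteasome handles regulated degradation of metabolic enzymes and damaged proteins.

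Gene counts came to between 17647882 and 20585366 reads per high fat high sugar library and to between 16565335 and 20005873 in chow. Of 12949 genes that passed the filter on low counts, 1428 (11.0%) were higher and 468 (3.61%) lower in high fat high sugar livers by edgeR's quasi-likelihood test, at a Benjamini-Hochberg adjusted p below 0.05. These counts fell to 4 and 2 if chow replicate 3 was dropped, to 345 and 113 if it was chow replicate 2, and to 762 and 177 if it was chow replicate 1. Dropping high fat high sugar replicate 1 left 293 lower genes, and dropping replicate 3 of that diet left 772. By correlation the second high fat high sugar library was the farthest from its group. Replicate 2 correlated with the other libraries of that diet at r = 0.961 and 0.957 across genes, while those other two correlated at 0.982 (log2 CPM, genes are not independent). The chow libraries correlated at 0.980 to 0.987, with chow replicates 1 and 3 the closest. With TMM scaling, chow replicate 1 was the highest library for 27 of the 48 tested proteasome genes and 10 of 19 interferon-gamma pathway genes. The same count was not made over all tested genes, so these counts do not set either list apart. The TMM factors were 0.90, 0.95 and 0.90 in chow replicates 1 to 3. In high fat high sugar replicates 1 to 3 they were 1.02, 1.26 and 1.01, and a smaller factor raises CPM. The labels do not say that each sample was a separate animal, so the p-values reflect only how far these libraries differ, which may be technical.

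Tissue markers were those of liver in all 6 libraries, with Alb, the serum albumin gene, at 24173 to 71089 CPM in high fat high sugar and 69128 to 89699 CPM in chow. Markers of several non-hepatocyte cell types were higher in high fat high sugar livers. Of the 8 macrophage and Kupffer cell markers 8 rose, with a summed level of 1121 to 2094 CPM in high fat high sugar and 345 to 538 CPM in chow. Of the 8 pan-leukocyte markers 5 rose, with sums of 264 to 531 CPM in high fat high sugar and 168 to 184 CPM in chow. Of the 8 hepatocyte markers 1, Serpina1c, fell, with sums of 41070 to 95041 CPM in high fat high sugar and 98314 to 118560 CPM in chow. In the other lists, the calls were higher for 4 of 5 tested dendritic cell, 1 of 5 T and NK cell, 0 of 5 B and plasma cell, 0 of 3 neutrophil, 4 of 6 endothelial, 4 of 5 cholangiocyte and 4 of 5 stellate cell markers. The 3 tested neutrophil markers still stood higher without overlap, against 21.5% of all tested genes. Their log2 fold changes were 1.88 to 2.55, with a smallest adjusted p of 0.057 by edgeR. Ly6g, a neutrophil marker, was at 0 in 5 libraries and at 0.154 CPM in high fat high sugar replicate 2. In bulk liver, fewer cells of a type and less RNA per cell cannot be told apart.

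No proteasome gene passed the test for diet. Of the 49 genes, 48 passed the filter on low counts, and 0 were called higher and 0 lower, against 11.0% and 3.61% of all tested genes. The smallest adjusted p was 0.119, for Psmd10. DESeq2, which called 13.0% of 14398 genes higher and 6.99% lower, and limma-voom, which called 7.70% higher and 2.88% lower, also called 0 of the 48. At an unadjusted p below 0.05, 2 genes were higher, Psmd8 and Psmd10, and 0 were lower, against 19.5% and 12.8% of all tested genes. Without high fat high sugar replicate 3, 0 were higher and 11 lower at this p, against 20.5% and 15.5% of all genes. With chow replicate 1, 2 or 3 left out, 0 were higher each time, and 0, 2 and 1 were lower in this order. The shares of all genes at this p were not computed for those 3 fits, so these counts say little about the proteasome genes. With TMM scaling, the libraries of the 2 diets did not overlap for 5 of the 48. Of these, 2 stood higher in high fat high sugar, Psmd8 and Psmd10, and 3 lower, Psma4, Psmd5 and Psmd11. Among all tested genes 21.5% were without overlap on the higher side and 18.0% on the lower. Scaled by library size only, the log2 fold changes of Psma4, Psmd5 and Psmd11 were −0.0036, 0.15 and −0.019. Overlap of the proteasome genes was not counted under that scaling.

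The 95% interval of the log2 fold change lay between −1 and 1, thus within a 2-fold change either way, for 47 of the 48 genes, against 65.9% of all tested genes. The exception was Psmb9, whose interval ran from −0.74 to 1.01. A 1.5-fold rise lay outside the interval of 43 genes, where 41 of the 48 fold changes were negative with TMM scaling. A 1.5-fold fall was not counted, nor was the share of all tested genes.

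**Figure D1:**
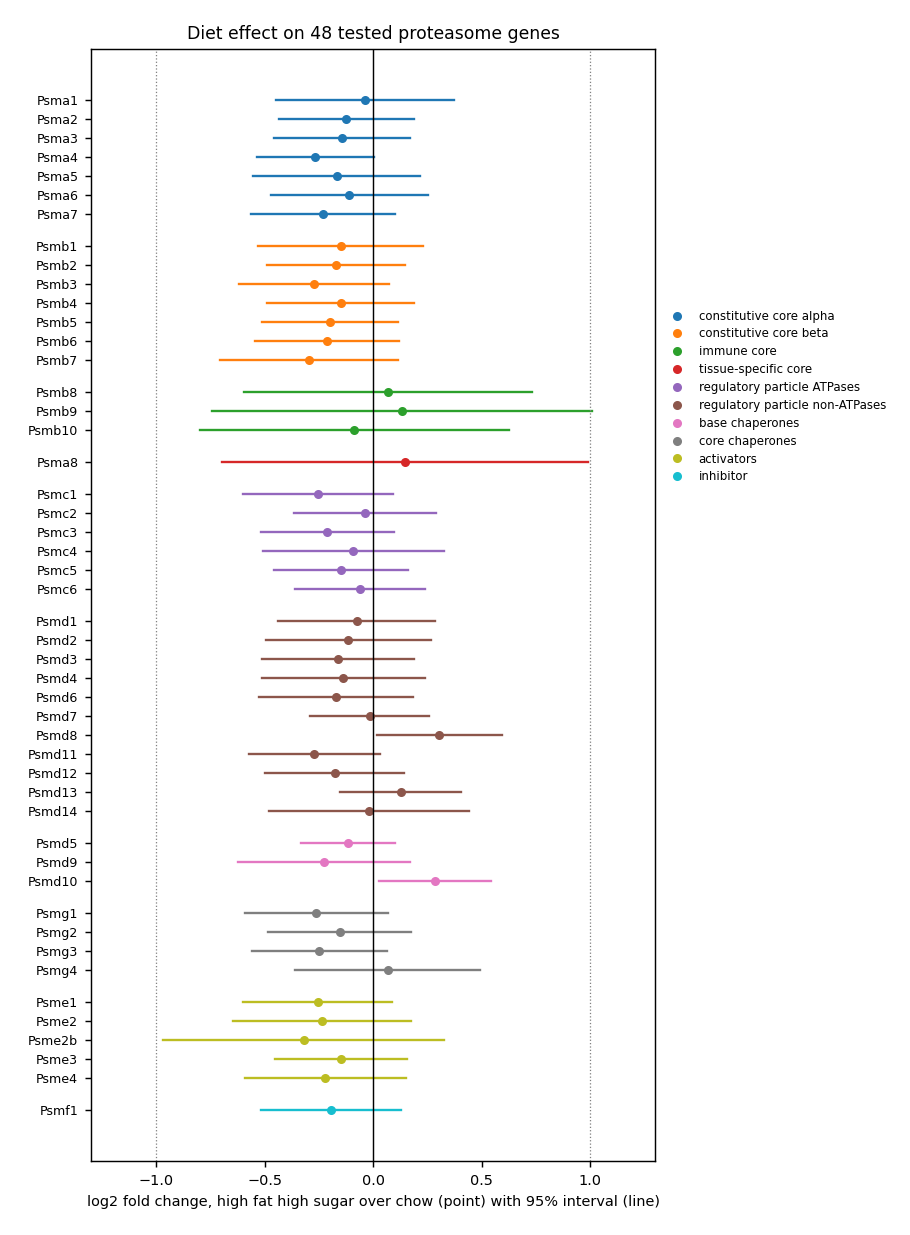
Log2 fold change of each of the 48 tested proteasome genes, high fat high sugar over chow (x axis), with its 95% interval from edgeR's quasi-likelihood fit; genes run down the page by structural class and dotted lines mark a 2-fold change. The intervals of Psmd8 and Psmd10 alone lie clear of 0, and the immune core genes and Psma8 have the widest.

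The direction of the small differences depended on how libraries were scaled. With TMM scaling, 41 of the 48 fold changes were negative and 7 positive, and their median was −0.15 (log2), against −0.02 over all tested genes. Scaled by library size only, 34 of the 48 changed sign, so that 41 were positive and 7 negative, with a median of 0.10, against 0.25 over all genes. The alpha genes were then positive in 6 of 7 cases, the beta genes in 5 of 7, the ATPases in 5 of 6, the non-ATPases in 10 of 11 and the activators in 4 of 5. Relative to all genes, the median of the proteasome genes was thus −0.13 and −0.14 under these scalings. With chow replicate 1 and high fat high sugar replicate 2 both left out, 24 were positive and 24 negative, with a median of 0.00. As a share of all gene counts, the 49 genes together held 0.358%, 0.389% and 0.402% in high fat high sugar replicates 1 to 3 and 0.375%, 0.361% and 0.321% in chow replicates 1 to 3, and the groups overlapped.

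The immune core is given first, since its genes answer to interferon. Psmb8, which takes the place of Psmb5, stood at 38.2, 53.5 and 54.4 CPM in high fat high sugar and at 66.9, 31.5 and 40.9 CPM in chow. Psmb9, which takes the place of Psmb6, stood at 22.1, 21.2 and 38.7 CPM in high fat high sugar and at 38.0, 16.8 and 19.7 CPM in chow. Psmb10, which takes the place of Psmb7, stood at 31.7, 48.2 and 39.6 CPM in high fat high sugar and at 59.5, 25.8 and 41.6 CPM in chow. For all 3 genes chow replicate 2 was the lowest of the 6 libraries, and chow replicate 1 was the highest for Psmb8 and Psmb10, so the high fat high sugar values lay inside the range of chow except that of Psmb9 in replicate 3.

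None of the immune core genes was called by edgeR. The log2 fold change was 0.07 ± 0.28 (SE) for Psmb8, with an adjusted p of 0.890, 0.13 ± 0.37 for Psmb9, with an adjusted p of 0.839, and −0.09 ± 0.30 for Psmb10, with an adjusted p of 0.871. The intervals ran from −0.59 to 0.73 for Psmb8 and from −0.80 to 0.62 for Psmb10. The signs moved with the library left out, and without both chow replicate 1 and high fat high sugar replicate 2 the log2 fold changes were 0.36 for Psmb8, 0.73 for Psmb9 and 0.08 for Psmb10, with adjusted p of 0.358, 0.165 and 0.884 by edgeR.

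The immune core genes varied within chow. The highest chow library was 2.12 times the lowest for Psmb8, 2.26 times for Psmb9 and 2.31 times for Psmb10. Over the 48 genes the median of this ratio was 1.20, and over all tested genes with counts in all chow libraries it was 1.24. Psma8 and Psme2b, at 2.22 and 2.09, had similar ratios within chow. In high fat high sugar the same ratio was 1.42, 1.83 and 1.52 for the 3 immune core genes. Its median there was 1.32 over the 48 and 1.36 over all tested genes with counts in all libraries of that diet. These ratios are descriptions with no test.

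**Figure D2:**
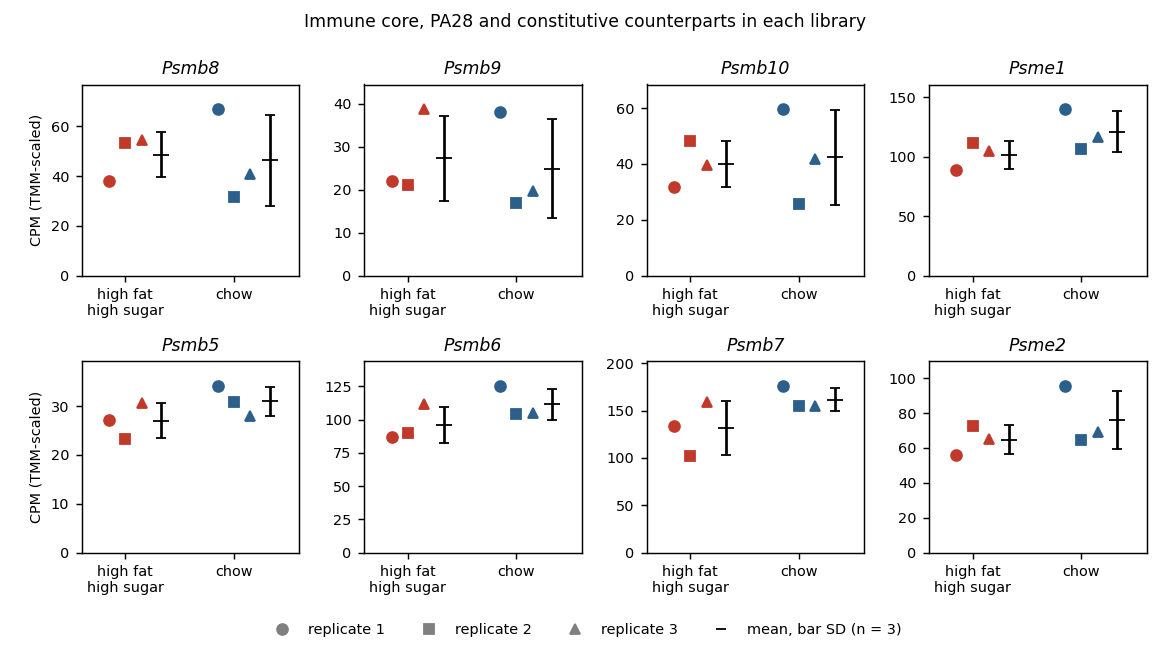
CPM of the immune core genes, of PA28 alpha and beta (Psme1, Psme2) and of the constitutive counterparts in each library, high fat high sugar left of chow; points are libraries, and the bar beside them is the mean with its SD (n = 3 each). Chow replicate 1 is the highest point for every gene shown except Psmb9, and the groups overlap for each.

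The genes Psmb8 and Psmb9 lie in the MHC region of chromosome 17 beside the peptide transporter genes Tap1 and Tap2. In RefSeq annotation of GRCm38.p6, the build that matches mm10, Psmb9 and Tap1 are divided by 225 bases, Tap1 and Psmb8 by 969 and Psmb8 and Tap2 by 3024. Upstream sequence is shown for the immune core and for the constitutive counterparts with a window in the RefSeq table, Psmb5 and Psmb6, since these pairs are the exchange that the comparison is about. Each is the 250 bases before the table's start, 5′ to 3′ on the gene's strand. For Psmb6 the annotated gene begins earlier, at base 70525324, so the end of its stretch, with the marked motif, lies inside the gene. The first bases of the Psmb9 stretch lie inside Tap1, which begins at base 34187556 on the plus strand. Capitals mark a match to TTCNNNGAA, the GAS-type motif of interferon-gamma responsive promoters, or to TGACNNNGC, the antioxidant-type motif bound by CNC factors with small Maf proteins.
Psmb8 (GRCm38.p6 chr17:34197945-34198194, plus strand): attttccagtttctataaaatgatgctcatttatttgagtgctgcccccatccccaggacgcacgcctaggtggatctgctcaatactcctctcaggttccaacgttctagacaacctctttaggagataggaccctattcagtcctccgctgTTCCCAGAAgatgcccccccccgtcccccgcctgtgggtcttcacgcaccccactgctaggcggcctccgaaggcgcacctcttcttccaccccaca
Psmb9 (GRCm38.p6 chr17:34187331-34187580, minus strand): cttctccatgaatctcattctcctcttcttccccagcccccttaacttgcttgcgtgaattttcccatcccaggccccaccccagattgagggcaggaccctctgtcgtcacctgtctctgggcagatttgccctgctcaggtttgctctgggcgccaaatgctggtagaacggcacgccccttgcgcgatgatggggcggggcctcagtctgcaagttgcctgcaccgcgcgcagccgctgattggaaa
Psmb10 (GRCm38.p6 chr8:105938393-105938642, minus strand): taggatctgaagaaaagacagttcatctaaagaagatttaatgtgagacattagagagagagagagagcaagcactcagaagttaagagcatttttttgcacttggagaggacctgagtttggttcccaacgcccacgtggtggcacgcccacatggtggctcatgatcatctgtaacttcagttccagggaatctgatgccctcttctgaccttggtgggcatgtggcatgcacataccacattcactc
Psmb5 (GRCm38.p6 chr14:54617996-54618245, minus strand): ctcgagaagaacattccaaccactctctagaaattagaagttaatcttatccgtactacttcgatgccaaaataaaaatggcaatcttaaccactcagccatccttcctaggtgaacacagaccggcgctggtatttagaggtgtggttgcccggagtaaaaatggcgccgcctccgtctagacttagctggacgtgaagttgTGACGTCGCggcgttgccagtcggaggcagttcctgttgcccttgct
Psmb6 (GRCm38.p6 chr11:70525107-70525356, plus strand): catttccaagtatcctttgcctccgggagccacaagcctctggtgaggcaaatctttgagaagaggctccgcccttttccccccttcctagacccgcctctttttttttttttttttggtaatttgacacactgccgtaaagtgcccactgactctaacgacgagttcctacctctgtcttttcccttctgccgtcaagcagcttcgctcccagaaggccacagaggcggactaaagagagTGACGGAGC

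The motif letters were searched on both strands in the 300 bases from 250 before to 50 after the start, for the 41 of the 49 genes that the table holds. The GAS-type letters occurred in 3 of 41 proteasome windows, against 8.47% of all 27025 windows, and of the immune core only Psmb8 held them, 97 bases before the start. The antioxidant-type letters occurred in 6 of 41 windows, against 12.5% of all windows, among them Psmb5 (47 bases before the start) and Psmb6 (9 bases before). An ISRE-type motif bound by interferon regulatory factors, searched as GAAA followed after 2 bases by GAAA, occurred in 5 of 41 windows, against 3.49% of all windows, namely those of Psmb3, Psmd4, Psmd9, Psmg4 and Psme1. A match is a description of these letters, and a window without one says nothing of the factor.

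The constitutive catalytic subunits were next set against their immune counterparts. Psmb5, with chymotrypsin-like activity, stood at 27.2, 23.3 and 30.6 CPM in high fat high sugar and at 34.0, 30.9 and 28.0 CPM in chow. Psmb6, with caspase-like activity, stood at 86.9, 89.7 and 112 CPM in high fat high sugar and at 125, 104 and 105 CPM in chow. Psmb7, with trypsin-like activity, stood at 133, 102 and 159 CPM in high fat high sugar and at 175, 154 and 154 CPM in chow. In each case the groups overlapped through high fat high sugar replicate 3, which reached the chow values, and the log2 fold changes of −0.20, −0.21 and −0.29 had adjusted p of 0.349, 0.339 and 0.289 by edgeR.

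Within a library the ratio of an immune subunit to its counterpart does not depend on library scaling. Per kilobase of transcript, the ratio of Psmb8 to Psmb5 was 0.775, 1.27 and 0.982 in high fat high sugar and 1.08, 0.563 and 0.806 in chow. The ratio of Psmb9 to Psmb6 was 0.150, 0.139 and 0.204 in high fat high sugar and 0.179, 0.0952 and 0.111 in chow. The ratio of Psmb10 to Psmb7 was 0.210, 0.416 and 0.220 in high fat high sugar and 0.300, 0.148 and 0.239 in chow. Psmb8 and Psmb5 were thus at similar levels per kilobase of transcript, while Psmb9 and Psmb10 were below their counterparts in every library. Per kilobase of coding sequence Psmb8 averaged 58.8 CPM in high fat high sugar and 56.1 CPM in chow, above Psmb5, at 34.1 CPM in high fat high sugar and 39.1 CPM in chow.

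All 3 ratios were higher on average in high fat high sugar, by 0.32, 0.39 and 0.29 on the log2 scale. None differed by more than the larger SD of the 2 diets. The difference for Psmb9 to Psmb6 was above the high fat high sugar SD of 0.29 and below the chow SD of 0.48. The exact two-sided permutation test over libraries gave p = 0.5, 0.3 and 0.6 in this order, each 0.6 after Benjamini-Hochberg adjustment over 3 ratios, and the smallest p that 3 against 3 allows is 0.1. Single libraries moved these differences by more than 1.5 times. Without chow replicate 1 they were 0.55, 0.66 and 0.51, and without chow replicate 2 they were 0.08, 0.20 and 0.00. For Psmb10 to Psmb7 the difference was −0.03 if replicate 2 of high fat high sugar was dropped. The immune subunits held 20.1%, 27.3% and 22.9% of the summed signal per kilobase of the 6 catalytic genes in high fat high sugar, a mean of 23.4% ± 3.64 (SD, n = 3). In chow they held 24.9%, 14.7% and 19.4%, a mean of 19.7% ± 5.09 (SD, n = 3). The difference of these means, 3.75 percentage points, was 6.35 without chow replicate 1 and 1.26 without chow replicate 2. By coding length the means were 31.3% in high fat high sugar and 26.5% in chow, a difference of 4.82 percentage points. The share and its difference between diets thus depend on the length used, while the diet differences of the 3 log2 ratios do not.

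**Figure D3:**
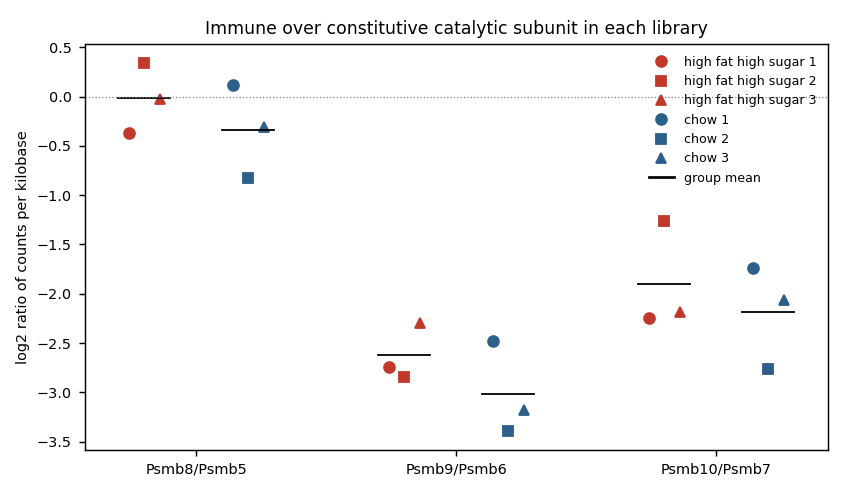
Log2 ratio of counts per kilobase of transcript, immune over constitutive subunit, for the 3 exchange pairs in each library, with high fat high sugar left of chow and a line at each group mean. The 2 diets overlap for every pair, and chow replicate 1 lies above both other chow libraries in each.

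The alpha ring (Psma1 to Psma7) forms the gate of the core. Its 7 genes had log2 fold changes from −0.27 to −0.04, with a median of −0.14, and 0 were called. Psma4 was the member with the smallest p, at 86.1, 82.1 and 91.4 CPM in high fat high sugar and 114, 104 and 94.2 CPM in chow. With TMM scaling the groups did not overlap, and the log2 fold change of −0.27 ± 0.12 (SE) had an adjusted p of 0.159 by edgeR. The span of Psma4 overlaps that of another gene, AY074887. Psma7 averaged 96.9 ± 12.4 CPM in high fat high sugar and 114 ± 13.7 CPM in chow, and Psma3 72.6 ± 8.97 CPM in high fat high sugar and 80.1 ± 8.43 CPM in chow (SD, n = 3 each).

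The beta ring (Psmb1 to Psmb7) holds the active sites with structural partners. Its 7 genes had log2 fold changes from −0.29 to −0.15, with a median of −0.20, and 0 were called. With TMM scaling, all 7 stood highest in chow replicate 1, and 6 of 7 lowest in high fat high sugar replicate 2. Psmb3, a structural subunit, had the smallest p, at 44.9, 39.5 and 55.9 CPM in high fat high sugar and 61.7, 55.7 and 52.1 CPM in chow, with an adjusted p of 0.247 by edgeR.

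The tissue-specific core genes were at or near 0 in liver. Psmb11, the thymus subunit, had 0 counts in all 6 libraries, where 3 counts would be 0.146 to 0.170 CPM, before TMM scaling, in high fat high sugar and 0.150 to 0.181 CPM in chow. Psma8, the testis alpha subunit, stood at 1.19, 1.23 and 1.45 CPM in high fat high sugar and at 0.667, 1.48 and 1.35 CPM in chow, with a log2 fold change of 0.15 and an adjusted p of 0.814 by edgeR.

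In the regulatory particle 0 of 17 genes were called. The 6 ATPases, which unfold substrates, had log2 fold changes from −0.25 to −0.04. With TMM scaling, all 6 were lowest in high fat high sugar replicate 2. Psmc1 stood at 109, 87.2 and 125 CPM in high fat high sugar and at 131, 127 and 124 CPM in chow, with an adjusted p of 0.279 by edgeR. Psmc3 averaged 111 ± 13.8 CPM in high fat high sugar and 128 ± 8.66 CPM in chow, and Psmc5 62.5 ± 9.15 CPM in high fat high sugar and 69.2 ± 3.98 CPM in chow (SD, n = 3 each). The 11 non-ATPases ranged more widely, from −0.27 to 0.30.

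Psmd8 was the 1 non-ATPase with an unadjusted p below 0.05. This lid subunit stood at 123, 133 and 148 CPM in high fat high sugar and at 118, 103 and 106 CPM in chow. Every high fat high sugar library was above every chow library, and the log2 fold change was 0.30 ± 0.12 (SE), with an interval from 0.02 to 0.59 and an adjusted p of 0.135 by edgeR. Scaled by library size only, its log2 fold change was 0.57, with an adjusted p of 0.032, and Psmd13, another lid subunit, was called too, with 0.38. Psmd13 stood at 82.0, 71.2 and 89.6 CPM in high fat high sugar and at 78.7, 70.3 and 73.1 CPM in chow under TMM.

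Psmd11, the lid subunit known from work on human stem cells to raise assembly of the capped proteasome, had a negative fold change. It stood at 73.8, 55.1 and 65.3 CPM in high fat high sugar and at 76.0, 82.3 and 75.8 CPM in chow. With TMM scaling the groups did not overlap, and the log2 fold change of −0.27 ± 0.13 (SE) had an adjusted p of 0.195 by edgeR. Psmd12 averaged 90.4 ± 12.5 CPM in high fat high sugar and 102 ± 8.33 CPM in chow (SD, n = 3 each), with overlap. The ubiquitin receptor Psmd4 and the deubiquitinase Psmd14 had log2 fold changes of −0.14 and −0.02.

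Chaperones that assemble the particle stood at 8.73 to 18.8 CPM per kilobase in high fat high sugar and at 9.46 to 22.6 CPM per kilobase in chow. Psmd10, known as gankyrin, which binds the ATPase Psmc4 during assembly of the base, stood at 16.2, 17.7 and 18.0 CPM in high fat high sugar and at 14.3, 14.7 and 13.5 CPM in chow. All high fat high sugar libraries were above all chow libraries, with a log2 fold change of 0.29 ± 0.11 (SE) and an adjusted p of 0.119 by edgeR. The span of Psmd10 overlaps that of Atg4a. Of the other base chaperones, Psmd5 stood at 40.4, 37.5 and 37.2 CPM in high fat high sugar and at 42.8, 41.0 and 41.0 CPM in chow. Its groups did not overlap with TMM scaling, yet the log2 fold change was −0.12 ± 0.09 (SE), with an adjusted p of 0.427 by edgeR. Psmd9 averaged 35.9 ± 8.37 CPM in high fat high sugar and 42.0 ± 2.06 CPM in chow (SD, n = 3 each).

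The chaperones of the core, Psmg1 to Psmg4, guide the alpha ring together. Psmg1, Psmg2 and Psmg3 had log2 fold changes of −0.26, −0.15 and −0.25, and Psmg4 one of 0.07, with 0 called. Psmg1 stood at 21.2, 17.3 and 20.5 CPM in high fat high sugar and at 26.6, 20.2 and 23.8 CPM in chow, with an adjusted p of 0.246 by edgeR. The groups overlapped for all 4.

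The activators are considered as a class and then singly. With TMM scaling, the sum over its 5 genes was 372, 355 and 388 CPM in high fat high sugar and 462, 428 and 412 CPM in chow, without overlap. Taken singly, each of the 5 genes overlapped between the diets, and no member was called. With library size scaling 4 of the 5 fold changes were positive, and overlap of the sum was not computed. No share over all genes was computed for such a sum. Psme1, PA28 alpha, stood at 88.7, 111 and 105 CPM in high fat high sugar and at 139.9, 107 and 117 CPM in chow. Psme2, PA28 beta, stood at 55.9, 72.8 and 65.4 CPM in high fat high sugar and at 95.3, 64.5 and 69.0 CPM in chow. Both were highest in chow replicate 1, as all 7 beta ring genes were, and their log2 fold changes of −0.26 ± 0.15 and −0.24 ± 0.18 (SE) had adjusted p of 0.273 and 0.392 by edgeR. Psme1 and Psme2 lie 5912 bases apart on chromosome 14, and the span of Psme1 overlaps that of Emc9.

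Psme3, the nuclear PA28 gamma, stood at 61.2, 50.0 and 67.2 CPM in high fat high sugar and at 62.9, 69.7 and 65.0 CPM in chow. Psme4, PA200, which is known for histone degradation, stood at 162, 116 and 147 CPM in high fat high sugar and at 156, 183 and 155 CPM in chow. The groups overlapped for both, with log2 fold changes of −0.15 and −0.22. Psme2b, a near copy of Psme2 with 99.4% identical bases over 794 aligned, stood at 4.18, 4.93 and 4.36 CPM in high fat high sugar and at 7.34, 3.52 and 5.99 CPM in chow, and its reads cannot be told from those of Psme2 with certainty. Psmf1, the inhibitor PI31, stood at 29.0, 27.8 and 37.2 CPM in high fat high sugar and at 38.7, 33.1 and 35.7 CPM in chow, with a log2 fold change of −0.19 and an adjusted p of 0.375 by edgeR. Spans overlap those of other genes for Psme2b (9930111J21Rik1), Psme4 (Erlec1 and a pseudogene) and Psmf1 (Tmem74b).

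Levels between genes were compared per kilobase of the longest protein-coding transcript, which need not be the form that liver uses. Psmb6, Psmb4, Psmb7, Psma6 and Psme1 led in high fat high sugar, with means of 120.5, 115, 113, 110.2 and 91.4 CPM per kilobase, against 139.7, 128, 139, 119 and 109 CPM per kilobase in chow. Among the first 4 in high fat high sugar, each differed from the next by less than 1 SD of either. The lowest measured were Psmd5, Psmf1, Psme2b and Psma8, at 8.73, 8.22, 5.36 and 0.763 CPM per kilobase in high fat high sugar and 9.46, 9.40, 6.71 and 0.689 CPM per kilobase in chow. Psmb8, Psmb10 and Psmb9 held ranks 32, 30 and 38 of 49 in high fat high sugar. By coding length Psmb1 led instead, so the order depends on the transcript chosen.

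**Figure D4:**
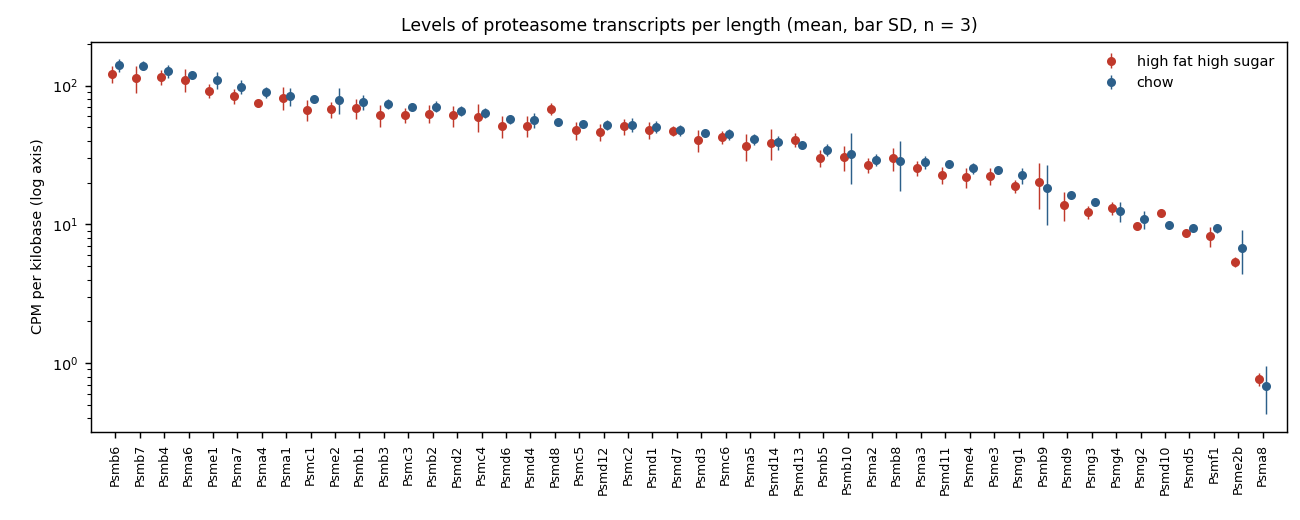
Mean CPM per kilobase of transcript (log axis) for the 48 genes with counts, ordered by the chow mean, with high fat high sugar left of chow for each gene and bars for the SD (n = 3 each). The level spans from Psmb6, at 120.5 in high fat high sugar and 139.7 in chow, to Psma8, below 1, and the 2 diets stay close at every gene.

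With TMM scaling, the same libraries were low or high for most of the complex. Of the 31 genes of the constitutive core and regulatory particle, 26 were lowest in high fat high sugar replicate 2 and 18 were highest in chow replicate 1. Their medians relative to the chow mean were −0.21, −0.35 and 0.02 for the core in high fat high sugar replicates 1 to 3 and 0.13, −0.04 and −0.12 in chow replicates 1 to 3, on the log2 scale. High fat high sugar replicate 2 also had the lowest hepatocyte marker sum, 41070 CPM, and the highest pan-leukocyte sum, 531 CPM. The part of these sums in the levels of the core was not tested. That library also had the largest TMM factor, 1.26, and a larger factor lowers CPM. The proteasome genes together held 0.389% of its gene counts. This share lay between 0.321% in chow replicate 3, the lowest library, and 0.402% in high fat high sugar replicate 3, the highest. The low place of high fat high sugar replicate 2 thus rests on TMM scaling for the summed genes. Ranks of single genes were not counted without it. The immune core had medians of −0.28, 0.19 and 0.23 in high fat high sugar and 0.52, −0.55 and −0.18 in chow.

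Genes that act on the proteasome were read from 3 lists. Of 15 tested partners and regulators of the complex 0 were called. With TMM scaling, 6 of the 15 stood lower without overlap and 1 higher, against 18.0% and 21.5% of all tested genes, and 12 fold changes were negative. Scaled by library size only, 1 stood lower and 3 higher without overlap, against 5.44% and 35.2% of all genes, and 6 fold changes were negative. Nfe2l1 and Nfe2l2, transcription factors that raise proteasome genes, had log2 fold changes of 0.14 and 0.33, with adjusted p of 0.527 and 0.167 by edgeR. Ddi2, the protease that activates Nfe2l1, stood at 41.8, 25.1 and 40.0 CPM in high fat high sugar and at 50.2, 58.3 and 49.8 CPM in chow. Its libraries did not overlap, and the log2 fold change of −0.57 ± 0.20 (SE) had an adjusted p of 0.091. Zfand2a, a stress-induced proteasome-binding protein, had a log2 fold change of 0.42 with an adjusted p of 0.069, Akirin2, known from human cells to carry proteasomes into the nucleus, one of −0.29 with 0.123, and the core maturation factor Pomp one of −0.18 with 0.530.

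Of 12 MHC class I antigen processing genes, which use the peptides the proteasome makes, 0 were called. Tap1 stood at 32.8, 38.8 and 47.8 CPM in high fat high sugar and at 46.0, 30.6 and 26.3 CPM in chow. Tap2 had a log2 fold change of 0.29 with an adjusted p of 0.256, and B2m, the light chain, one of −0.15 with 0.665 by edgeR. H2-K1, a heavy chain, had −0.33 with 0.321, the peptide trimmer Erap1 −0.14 with 0.502 and the transactivator Nlrc5 0.01 with 0.987. The groups overlapped for all 12.

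Of 19 interferon-gamma signalling genes 3 rose and 0 fell, against 11.0% and 3.61% of all tested genes. Those that rose were the receptor chain Ifngr1, with a log2 fold change of 1.07 ± 0.22 (SE) and an adjusted p of 0.021, the myeloid factor Irf8, with 1.42 ± 0.36 and 0.043, and the MHC class II transactivator Ciita, with 2.65 ± 0.66 and 0.041. Irf8 and Ciita are at home in myeloid and antigen-presenting cells, and the macrophage markers were higher beside them, with sums of 1121 to 2094 CPM in high fat high sugar and 345 to 538 CPM in chow. Their part in these calls was not tested. With chow replicate 1, 2 or 3 left out, none of these genes was called, and Gbp3 was the 1 list gene called without chow replicate 1. Ciita was also not called without high fat high sugar replicate 1, with an adjusted p of 0.052. Irf1, an interferon-induced transcription factor, had a log2 fold change of −0.13 with an adjusted p of 0.759. Igtp, an interferon-induced GTPase, stood at 26.9, 38.8 and 40.1 CPM in high fat high sugar and at 136, 25.7 and 37.6 CPM in chow, with chow replicate 1 the highest, as for most proteasome genes. Igtp was chosen after its values were seen.

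**Figure D5:**
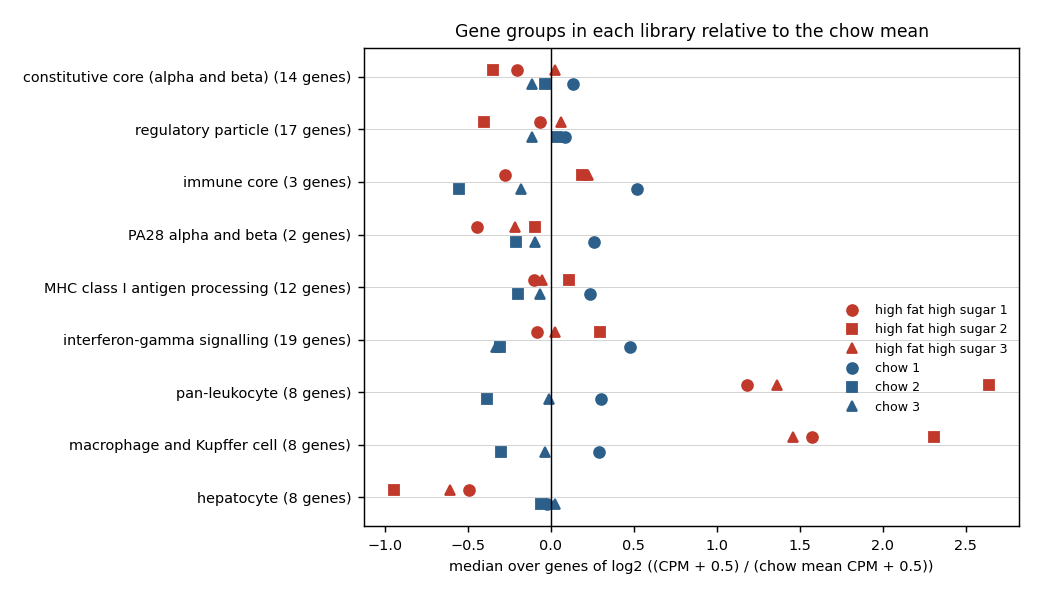
Median over the genes of each list of the log2 level relative to the chow mean, for each library, with high fat high sugar points drawn above chow points in each row. The 6 lists of proteasome, MHC class I and interferon-gamma genes are highest in chow replicate 1, while the leukocyte and macrophage lists are highest in high fat high sugar replicate 2 and the hepatocyte list is lowest there.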

How the data were processed

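Liver polyA RNA was sequenced in 3 high fat high sugar and 3 chow libraries, made with a dUTP-based stranded kit per the labels' protocols. Per the submitters' processing notes, reads were aligned with STAR to mm10, with no version named. Of the counting program, annotation and strand setting, nothing was stated in the sources at hand. The deposited values are raw read counts per gene. Rows for reads outside genes (7.74 to 10.6% of counts in high fat high sugar, 8.48 to 10.3% in chow) and for ambiguous reads (0.615 to 0.698% in high fat high sugar, 0.766 to 0.862% in chow) were left out. Of 49 proteasome genes, 13 have spans that overlap another RefSeq gene, and without a known strand setting such reads could be shared.

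Genes passed filterByExpr at a minimum count of 10, leaving 12949 of 17877 with at least 1 count. Diet was tested with edgeR 4.0.16 (quasi-likelihood, robust, TMM, no covariate) in R 4.3.3, with Benjamini-Hochberg adjustment over all tested genes at 0.05. DESeq2 1.42.0, limma 3.58.1 (voom), other scalings, no filter, a replicate block and leaving out each library were alternatives. The fit was tested on simulated data. Transcript and coding lengths came from GENCODE M21 and promoters from RefSeq GRCm38.p6. List medians per library added 0.5 CPM. The chi-square per gene within a group was at least 23.5, so no library was a copy of another. Floors and levels cover counting error only where a count is 0. File name stems differ by diet and no batch is labelled, so handling and diet cannot be told apart.

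The genes, lists and tests were chosen with earlier results of these data known, and some results are not reported here. The genes named are all immune core genes, their counterparts, activators and the inhibitor, the 3 of smallest p in each other class and list, and Irf1, Nlrc5, Tap1, Tap2, B2m, Pomp, Nfe2l1 and Nfe2l2. Psmd4, Psmd13, Psmd14, Psmg4, Gbp3 and Igtp were named after their values were seen, as were the genes at the ends of the order of levels. Whether replicate numbers pair the samples is not known, and the main fit treated them as unpaired. Leaving out chow replicate 1 and high fat high sugar replicate 2 together was added after seeing the data.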

Additional observations from a re-analysis of the deposited data

How the results depend on the processing

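Depth limits the rarest genes, since Psma8 rests on 81 counts in high fat high sugar and 59 in chow, summed over 3 libraries each. No proteasome gene was called by edgeR under RLE scaling, upper-quartile scaling, no filter on low counts, the replicate block or with any library left out, nor by DESeq2 or limma-voom. Scaled by library size only, 2 proteasome genes were called higher (Psmd8 and Psmd13), both among the non-ATPases (2), and 1 partner, Zfand2a, which was also the 1 called under upper-quartile scaling. Over all tested genes, the lower calls came to 200 with library size only, 1006 with DESeq2 and 282 with the replicate block, against 468; higher calls with the block were 961. With libraries left out in turn, higher calls ran from 4 to 1664 and lower calls from 2 to 772. The correlation of deviations of same-numbered libraries was −0.25, −0.17 and 0.03. With 3 libraries per diet, these values cannot settle whether replicate numbers pair the samples. The interferon-gamma list had 1 higher with no filter, with limma-voom and with the block, 5 without chow replicate 1 and high fat high sugar replicate 2, and 0 to 3 with each left out.

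With library size only, 34 of the 48 proteasome genes turned sign, and among the genes given a fold change in the text the turned signs were those of Psmb10 (0.21), Psmb5 (0.056), Psmb6 (0.048), Psme1 (0.026), Psme2 (0.048), Psme3 (0.10), Psme4 (0.027), Psmf1 (0.065), Psma7 (0.031), Psma3 (0.11), Psmc3 (0.045), Psmc5 (0.10), Psmd12 (0.075), Psmd4 (0.11), Psmd14 (0.22), Psmd9 (0.017), Psmd5 (0.15), Psmg3 (0.013), Psmg2 (0.11), Erap1 (0.14), Irf1 (0.17), B2m (0.12) and Pomp (0.068), as log2 fold changes. With upper-quartile scaling Psmb10 was at 0.0058 and Psmd14 at 0.064. Psmd14 was positive without chow replicate 1 (0.029), chow replicate 2 (0.012) or high fat high sugar replicate 2 (0.18), and Psmg4 negative without chow replicate 2 (−0.064). With chow replicate 1 and high fat high sugar replicate 2 both left out, 19 of the 48 turned, and among those named Psmb10 was at 0.084, Psma8 at −0.10, Psma3 at 0.023, Psmc5 at 0.0049, Psmd4 at 0.026, Psmd14 at 0.23 and Pomp at 0.053. Nlrc5 was at −0.019 with no filter and −0.012 with DESeq2. With each library left out in turn, the log2 fold change ran from −0.16 to 0.42 for Psmb8, −0.21 to 0.57 for Psmb9, −0.35 to 0.23 for Psmb10, −0.15 to 0.36 for Psma8, −0.33 to 0.11 for Irf1 and −0.15 to 0.19 for Nlrc5. The Psmb10 to Psmb7 ratio difference ran from −0.029 to 0.51. The causes of these shifts were not tested.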
